A study of Homo sapiens with 8 samples.

Results

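The 10 genes described here encode transporters that carry amino acids across the plasma membrane. They were chosen by name, with earlier results of these data known, as 10 of the 60282 genes listed for each library: SLC3A2, SLC7A5, SLC7A6, SLC43A1, SLC7A1, SLC1A5, SLC1A4, SLC38A1, SLC38A2 and SLC6A9. RNA was sequenced from SK-UT-1, an established human uterine leiomyosarcoma cell line, in 4 vehicle (DMSO) libraries and in 4 libraries of cells treated with TP-472, an inhibitor of the bromodomain proteins BRD9 and BRD7, at 5 µM for 48 h. Both groups come from 1 unmodified cell line, and although the study's methods speak of biological replicates for its experiments in general, no label says that the libraries of a group came from separate cultures. The p-values measure the spread between these libraries, part of which may be technical. Library totals ran from 32574672 to 38545464 estimated counts, and levels are given as CPM, in which counts are divided by the library size after TMM scaling in edgeR.

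Amino acids are charged or polar and enter cells through membrane carriers, which differ in the amino acids they bind and in what drives transport. Exchangers such as SLC7A5 and SLC1A5 trade one amino acid for another, whereas the sodium-coupled carriers of the SLC38 family load the cell with glutamine and other small neutral amino acids. Leucine and arginine that enter in this way are sensed by the mTORC1 pathway, and a shortage of amino acids raises translation of ATF4, a transcription factor that is known to induce several transporter genes, SLC7A5, SLC3A2 and SLC7A11 among them.

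Vehicle replicate 3 stood apart from the other libraries. On the first principal component, which held 65.8% of the variance, it lay at -94.0, whereas the other vehicle libraries lay between -36.4 and -13.5 and the TP-472 libraries between 37.0 and 43.4. Its median Spearman correlation with the libraries of its own group was 0.914, against 0.988 or higher in each of the other 7. Genes in the top decile of GC content (at least 61.5% GC) were higher in it by a median of 1.08 on the log2 scale relative to each gene's mean over the 8 libraries, and genes in the bottom decile (at most 39.8% GC) differed by a median of -0.69. Of the 10 transporters, 7 were higher in it than in every other vehicle library, SLC38A1 and SLC38A2 were lower, and SLC7A6 lay within their range. The 2 genes that were lower in it had the lowest GC content of the 10, at 43.3% and 38.8%, while SLC7A5, at 60.4% GC, was higher. The fold changes of the 10 genes, their ratios and the counts of the lists of related genes are therefore given with and without it.

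All 10 genes passed the filter on low counts. A gene was called where edgeR's adjusted p was under 0.05 and the change was over 1.5-fold. In TP-472-treated cells 1 transporter gene was called higher, SLC7A6, and 2 were called lower, SLC38A2 and SLC6A9, so that 30% of the 10 were called, against 26.9% of the 14073 genes tested (12% higher and 14.9% lower). At an adjusted p under 0.05 with any fold, SLC3A2 and SLC1A5 rose as well, giving 3 higher and 2 lower of 10, against 17.2% and 19.1% of all genes tested. The median log2 fold change of the 10 was 0.16, and that of all genes tested was -0.03. With vehicle replicate 3 left out, these medians were 0.33 and -2e-05. In that fit the same 3 genes were called, against 25.5% of all genes (12% higher and 13.4% lower). At any fold 9 of 10 then passed, 6 higher and 3 lower, against 57% of all genes (28.6% higher and 28.4% lower). SLC7A1 was the gene that did not. The libraries of the 2 groups did not overlap for 5 of the 10 genes, with TP-472 above for 3 and below for 2, against 45.4% of all genes tested (23.8% above and 21.6% below). Since RNA was taken from whole cultures, fewer cells that express a gene and less of its RNA per cell cannot be told apart.

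**Figure D1:**
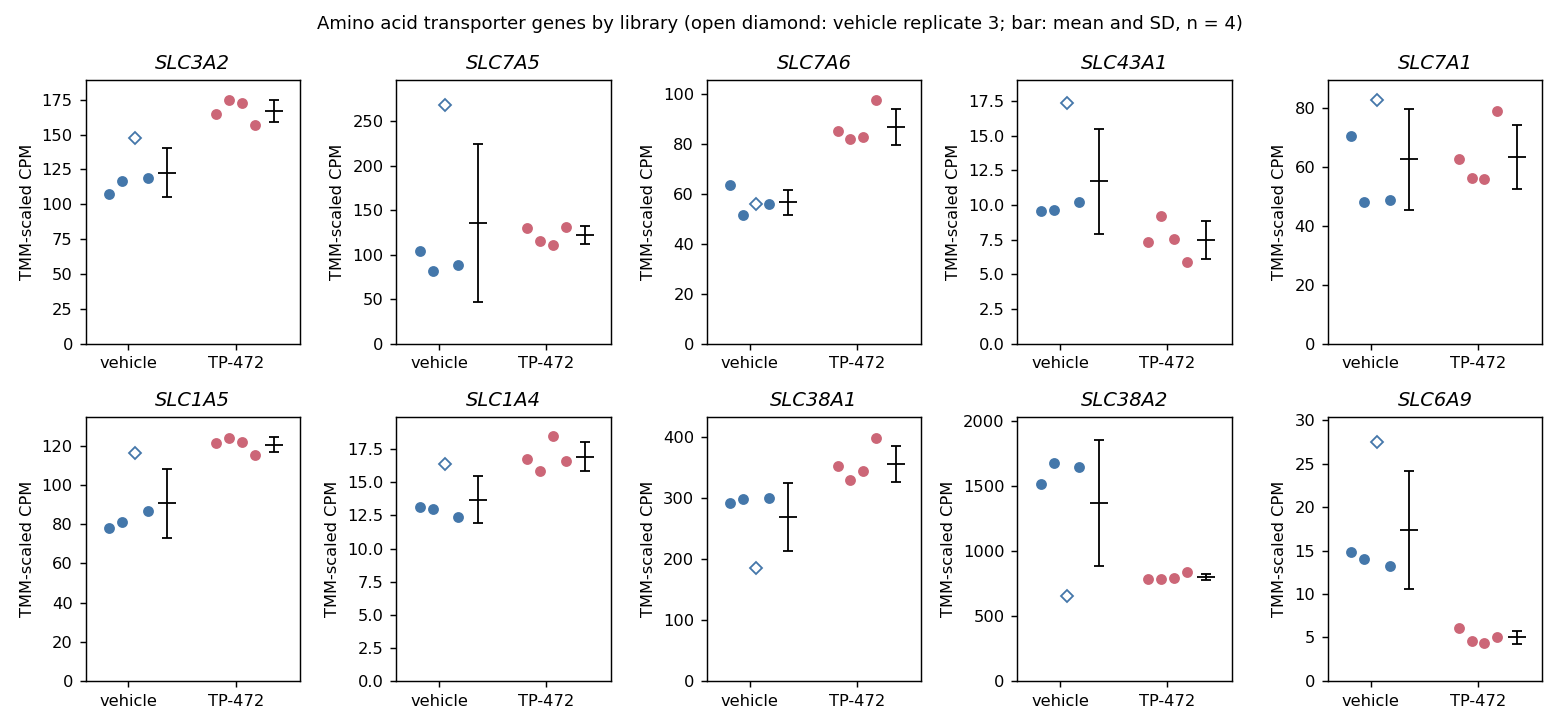
TMM-scaled CPM of the 10 transporter genes in each library (y axes, linear and starting at 0), for the vehicle libraries (blue, with replicate 3 as an open diamond) and the TP-472 libraries (red), with the mean and SD of 4 libraries as black bars. Vehicle replicate 3 lies far above the other vehicle libraries for SLC7A5 (269 CPM) and SLC6A9 (27.5 CPM) and far below them for SLC38A2 (649 CPM).

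Levels of different genes were compared per kilobase of exonic length. In vehicle, SLC38A2 was the most abundant of the 10, at 273 ± 96.8 CPM per kb (SD, n = 4). SLC3A2 followed at 46.3 ± 6.54 CPM per kb, and then SLC7A5 at 29.6, SLC38A1 at 28.8 and SLC1A5 at 27.2, and within these 4 genes each mean ± SD overlapped the next. SLC7A6 at 8.91 and SLC7A1 at 8.50 CPM per kb overlapped in mean ± SD. The same held for neighbours among the 3 least abundant genes, SLC43A1 at 4.33, SLC6A9 at 4.03 and SLC1A4 at 2.92 CPM per kb. Such an overlap is of spreads over libraries, and the genes were not compared within each library, so it does not show equal levels. The third place of SLC7A5 rested on vehicle replicate 3: without it (added after seeing the data) SLC38A2 was at 321, SLC3A2 at 43.1, SLC38A1 at 31.8, SLC1A5 at 24.6 and SLC7A5 at 19.9 CPM per kb, and of all 10 genes only SLC7A6 and SLC7A1, at 8.94 and 7.58, overlapped as neighbours. In TP-472-treated cells SLC38A2 remained first at 160 ± 4.92 CPM per kb, SLC3A2 second at 63.0 ± 3.02, and SLC6A9 was last at 1.16 ± 0.176. SLC38A1 and SLC1A5, at 38.2 and 36.2 CPM per kb, were the only neighbours in that order whose SDs overlapped.

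SLC3A2, at chr11:62856102-62888875 on the plus strand of GRCh38, encodes the CD98 heavy chain, a glycoprotein that does not transport by itself but brings light chains such as SLC7A5 and SLC7A6 to the cell surface. It was measured at 108, 117, 148 and 119 CPM in vehicle replicates 1 to 4 and at 165, 174, 172 and 157 CPM under TP-472, in replicate order. Every TP-472 library lay above every vehicle library, and vehicle replicate 3 was the closest to them. The level rose from 123 ± 17.4 to 167 ± 8.01 CPM (SD, n = 4 each), and the log2 fold change was 0.45 (SE 0.118, adjusted p = 0.0185 by edgeR), which is under the 1.5-fold limit. The exact two-sided permutation test over the 8 libraries gave p = 0.0286, the smallest it can give. Without vehicle replicate 3 the log2 fold change was 0.55 (SE 0.065, adjusted p = 1.00e-04). With a replicate block the adjusted p was 0.0525. It was 0.0506 to 0.0598 without vehicle replicate 1 or without TP-472 replicate 1, 2 or 3.

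SLC7A5, at chr16:87830023-87869488 on the minus strand, encodes LAT1, the light chain that takes up leucine and other large neutral amino acids in exchange for intracellular ones. Vehicle replicates 1 to 4 had 105, 81.3, 269 and 88.2 CPM, and TP-472 replicates 1 to 4 had 130, 116, 111 and 131 CPM. The TP-472 libraries were all above vehicle replicates 1, 2 and 4 and all below replicate 3, so the direction of the difference rested on that 1 library. With all 8 libraries the levels were 136 ± 89.2 CPM in vehicle and 122 ± 10.3 CPM in TP-472 (SD, n = 4 each), and the log2 fold change was -0.15 (SE 0.358, adjusted p = 0.751), which did not exceed the spread between replicates. When vehicle replicate 3 was left out, the vehicle mean was 91.4 ± 11.97 CPM (n = 3) and the log2 fold change was 0.42 (SE 0.099, adjusted p = 0.00551), a rise under 1.5-fold. With all libraries and a correction for GC content it was 0.33 (SE 0.194, adjusted p = 0.174).

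Reads of SLC7A5 can be split with its near-identical pseudogene copies, and its values are uncertain to that extent. SLC7A5P1 held between 55 and 189 counts in the vehicle libraries and between 114 and 176 in the TP-472 libraries. SLC7A5P2 held 157 counts in vehicle replicate 3 and 0 in each of the other 7 libraries. The 2 copies took from 1.82% to 3.78% of the counts assigned to SLC7A5 and its copies, with 3.59% in vehicle replicate 3. A transcript on the opposite strand, AC126696.2, and MIR6775 on the same strand also overlap the gene. Of the other transporters, SLC7A6, SLC1A5, SLC38A2 and SLC6A9 share bases with genes on the opposite strand, SLC7A6OS and CCDC24 among them, and SLC38A1 and SLC1A4 with genes on the same strand.

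SLC7A6, at chr16:68264516-68301823 on the plus strand, encodes y+LAT2, the light chain that exchanges arginine and other cationic amino acids for neutral ones. It was measured at 63.4, 51.3, 55.9 and 55.8 CPM in vehicle replicates 1 to 4 and at 85.1, 81.8, 82.9 and 97.4 CPM under TP-472, in replicate order. The groups did not overlap, and vehicle replicate 3 lay among the other vehicle libraries. SLC7A6 rose from 56.6 ± 5.02 to 86.8 ± 7.22 CPM (SD, n = 4 each), and the log2 fold change was 0.62 (SE 0.107, adjusted p = 0.00303). Leaving out vehicle replicate 3 gave 0.61 (SE 0.090, adjusted p = 3.79e-04). The change was close to the 1.5-fold limit, and with a correction for GC content it was 0.55 (adjusted p = 7.38e-04) and was no longer called. The call was also lost without vehicle replicate 2, at 0.57, and without TP-472 replicate 4, at 0.56, and in both of these fits no transporter was called higher.

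SLC43A1, at chr11:57484534-57515786 on the minus strand, encodes LAT3, a carrier of branched-chain amino acids and phenylalanine that needs no heavy chain. Its libraries read 9.56, 9.66, 17.4 and 10.2 CPM in vehicle replicates 1 to 4 and 7.30, 9.22, 7.55 and 5.87 CPM under TP-472, in replicate order. No TP-472 library reached the vehicle range, with TP-472 replicate 2 just under the lowest of them. The log2 fold change of -0.64 (SE 0.232) did not pass edgeR's test (adjusted p = 0.0562), whereas DESeq2 called the gene lower (-0.64, adjusted p = 0.0310), as did edgeR without a filter on low counts (adjusted p = 0.0499). Without vehicle replicate 3 it was -0.39 (SE 0.139, adjusted p = 0.0363).

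**Figure D2:**
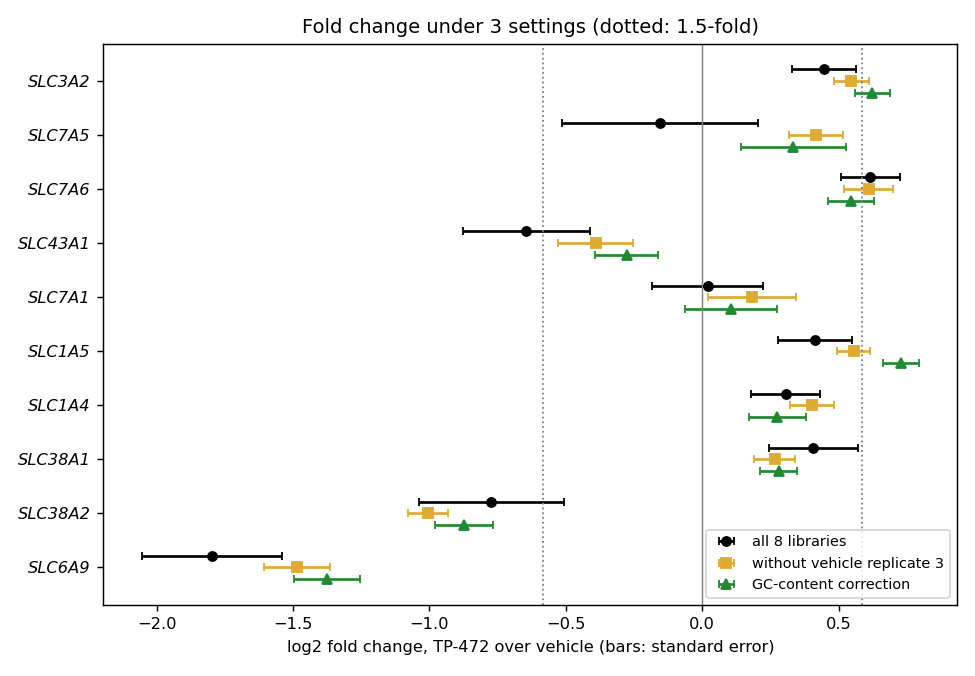
Log2 fold change of TP-472 over vehicle (x axis) for the 10 transporter genes, with bars of 1 standard error, from all 8 libraries (black circles), without vehicle replicate 3 (yellow squares) and with a correction for GC content (green triangles). Dotted lines mark a 1.5-fold change. SLC7A5 moves from -0.15 to 0.42 when vehicle replicate 3 is left out, while SLC6A9 stays below the lower line in each fit.

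The promoter windows of RefSeq, from 250 bases before to 50 after each gene's start on GRCh38.p14, held all 10 genes and were searched on both strands for 3 motifs of factors known to act on genes of this kind. These were TGATGNAA, the composite element of C/EBP and ATF factors through which ATF4 acts, CACGTG, the E-box of MYC, and TGANTCA, the AP-1 site. No match of one of these motifs overlaps another in the windows of the 10 genes. The first was in 3.62% of all 35116 windows, the second in 7.26% and the third in 7.71%. A match is a description of the letters and not evidence of binding, and RefSeq's start can differ from that of the gene model. For SLC3A2 it lies 25597 bases inside the GENCODE gene model and for SLC38A1 3501 bases inside, and for the other 8 genes it is within 94 bases of its outer start. Of the 10 windows, 3 held TGATGNAA (SLC3A2, SLC7A1 and SLC38A1), 2 held CACGTG (SLC7A5 and SLC43A1), 2 held TGANTCA (SLC3A2 and SLC38A1), and 5 held none (SLC7A6, SLC1A5, SLC1A4, SLC38A2 and SLC6A9). The matches in the heavy chain, in its light chain SLC7A5, in SLC38A1 and in SLC7A1 are shown 5′ to 3′ on the gene's strand, with the motif in capitals. In SLC3A2 the AP-1 site begins 37 bases before the start (chr11:62881637-62881693, plus strand) and the C/EBP and ATF element, on the opposite strand, begins at transcript base 38 (chr11:62881714-62881743). In SLC7A5 the E-box begins 130 bases before the start (chr16:87869607-87869662, minus strand). In SLC38A1 the AP-1 site begins 57 bases before the start (chr12:46266542-46266598, minus strand) and the C/EBP and ATF element 4 bases before it (chr12:46266513-46266542). In SLC7A1 that element begins at transcript base 8 (chr13:29595674-29595703, minus strand).
SLC3A2, AP-1 site: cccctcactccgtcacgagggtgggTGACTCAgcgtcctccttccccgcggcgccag
SLC3A2, C/EBP and ATF element: ctgaagtaatgtgcaggactccTTACATCA
SLC7A5, E-box: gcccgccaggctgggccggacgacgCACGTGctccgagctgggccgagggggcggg
SLC38A1, AP-1 site: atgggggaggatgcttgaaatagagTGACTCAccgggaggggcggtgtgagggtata
SLC38A1, C/EBP and ATF element: aacatttgtcctcagacccgaaTGATGAAA
SLC7A1, C/EBP and ATF element: gggcgggggccgggcgcactgcTGATGAAA

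SLC7A1, at chr13:29509410-29595688 on the minus strand, encodes CAT1, which takes up arginine and lysine. Its level was 70.4, 48.1, 82.5 and 48.6 CPM in vehicle replicates 1 to 4 and 62.4, 56.1, 55.7 and 78.9 CPM under TP-472, in replicate order. The groups overlapped throughout, with 2 low and 2 high libraries in vehicle and with 1 high library in TP-472. The log2 fold change was 0.02 (SE 0.203, adjusted p = 0.946), and 0.18 (SE 0.161, adjusted p = 0.356) without vehicle replicate 3.

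SLC1A5, at chr19:46774883-46788594 on the minus strand, encodes ASCT2, a sodium-dependent exchanger that takes up glutamine. Vehicle replicates 1 to 4 had 78.3, 81.2, 116 and 86.8 CPM, and TP-472 replicates 1 to 4 had 122, 124, 122 and 115 CPM. The groups overlapped only through vehicle replicate 3, which lay just above TP-472 replicate 4. SLC1A5 rose from 90.7 ± 17.5 to 121 ± 3.82 CPM (SD, n = 4 each), and the log2 fold change was 0.41 (SE 0.136, adjusted p = 0.0415), under the 1.5-fold limit. When vehicle replicate 3 was left out, it was 0.56 (SE 0.060, adjusted p = 5.98e-05). With any other single library left out instead, the adjusted p was between 0.0716 and 0.103. It was also over 0.05 with upper-quartile scaling (0.0524), total-count scaling (0.0837), no filter (0.0648) and a replicate block (0.0757). With a correction for GC content the changes of SLC1A5 and SLC3A2 passed the 1.5-fold limit, at 0.73 and 0.62.

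SLC1A4, at chr2:64988477-65023865 on the plus strand, encodes ASCT1, the related carrier of alanine, serine and cysteine. It was measured at 13.1, 12.96, 16.4 and 12.4 CPM in vehicle replicates 1 to 4 and at 16.8, 15.9, 18.5 and 16.6 CPM under TP-472, in replicate order. Here too vehicle replicate 3 alone reached into the range of the TP-472 libraries. The log2 fold change was 0.31 (SE 0.127, adjusted p = 0.0865), and 0.40 (SE 0.079, adjusted p = 0.00203) without that library.

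SLC38A1, at chr12:46183063-46270017 on the minus strand, encodes SNAT1, a sodium-coupled carrier that loads cells with glutamine. Vehicle replicates 1 to 4 had 291, 298, 186 and 299.5 CPM, and TP-472 replicates 1 to 4 had 352, 330.0, 345 and 398 CPM. Every TP-472 library lay above every vehicle library. The log2 fold change was 0.41 (SE 0.163, adjusted p = 0.0793), and without vehicle replicate 3, which was far below the rest, it was 0.27 (SE 0.074, adjusted p = 0.0124).

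SLC38A2, at chr12:46358189-46372867 on the minus strand beside SLC38A1, encodes SNAT2, the carrier of small neutral amino acids that is known to be induced when amino acids are scarce. Vehicle replicates 1 to 4 had 1509.8, 1672, 649 and 1640.3 CPM, and TP-472 replicates 1 to 4 had 787, 785, 792 and 837 CPM. The TP-472 libraries were close together, with 3 vehicle libraries far above them and replicate 3 below them. SLC38A2 fell from 1368 ± 484 to 800.4 ± 24.6 CPM (SD, n = 4 each), and the log2 fold change was -0.77 (SE 0.265, adjusted p = 0.0478). Although edgeR called the gene, the groups overlapped and the exact permutation test gave p = 0.143. Without vehicle replicate 3 the vehicle mean was 1607 ± 85.9 CPM (n = 3) and the log2 fold change -1.01 (SE 0.072, adjusted p = 5.72e-06). With any other single library left out instead, the call was lost, at adjusted p between 0.0918 and 0.108.

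SLC6A9, at chr1:43991500-44031467 on the minus strand, encodes GLYT1, which takes up glycine together with sodium and chloride. Its libraries read 14.8, 14.1, 27.5 and 13.2 CPM in vehicle replicates 1 to 4 and 6.06, 4.59, 4.33 and 5.02 CPM under TP-472, in replicate order. The groups were far apart, and vehicle replicate 3 widened the gap. SLC6A9 fell from 17.4 ± 6.76 to 5.00 ± 0.760 CPM (SD, n = 4 each), and the log2 fold change was -1.80 (SE 0.256, adjusted p = 0.00123). When vehicle replicate 3 was left out, it was -1.49 (SE 0.121, adjusted p = 1.18e-05), so the call of SLC6A9 did not rest on that library.

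Ratios of counts within a library compare paired carriers without any scaling between libraries. The ratio of SLC38A2 to SLC38A1 was 5.18, 5.61, 3.49 and 5.48 in the vehicle libraries and 2.24, 2.38, 2.30 and 2.11 under TP-472, in replicate order. The groups did not overlap, and TP-472 was the lower even against vehicle replicate 3. The mean log2 ratio differed by -1.11 (exact two-sided permutation test, p = 0.0286, adjusted over 4 ratios p = 0.0571), and by -1.27 without vehicle replicate 3. The adjusted value misses the threshold, and with 4 libraries per group this test can give no p below 0.0286 for a single ratio.

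The ratio of SLC7A5 to SLC7A6, light chains that share the heavy chain, was 1.65, 1.58, 4.81 and 1.58 in the vehicle libraries and 1.53, 1.41, 1.33 and 1.34 under TP-472, in replicate order. The groups did not overlap, but most of the difference in means came from vehicle replicate 3. The mean log2 ratio differed by -0.59 with it (exact permutation test, p = 0.0286, adjusted over 4 ratios p = 0.0571) and by -0.19 without it. The log2 ratio of SLC7A5 to SLC3A2 differed by -0.43 (exact permutation test, p = 0.257), and by -0.13 without vehicle replicate 3. That of SLC1A5 to SLC1A4 differed by 0.12 (exact permutation test, p = 0.200), and by 0.16 without that library, and both of these ratios overlapped between the groups.

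**Figure D3:**
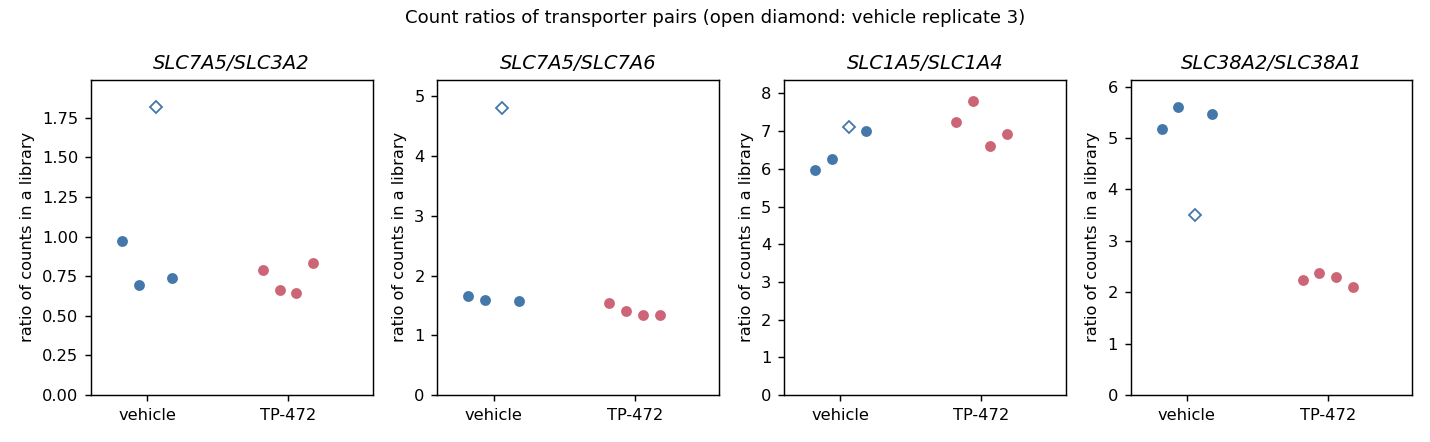
Ratio of the counts of 2 transporter genes in the same library (y axes, linear and starting at 0) for 4 pairs, in vehicle libraries (blue, with replicate 3 as an open diamond) and TP-472 libraries (red). The ratio of SLC38A2 to SLC38A1 lies between 2.11 and 2.38 in TP-472 and between 3.49 and 5.61 in vehicle.

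Other light chains of SLC3A2 were looked at after their values were seen. SLC7A11, the cystine and glutamate exchanger, was measured at 79.2, 75.3, 41.0 and 78.9 CPM in vehicle replicates 1 to 4 and at 62.4, 61.9, 57.0 and 68.3 CPM under TP-472, in replicate order. As for SLC38A1 and SLC38A2, vehicle replicate 3 was the lowest of all 8 libraries, and the TP-472 libraries were below the other 3 vehicle libraries. The log2 fold change was -0.14 (SE 0.200, adjusted p = 0.608), and -0.32 (adjusted p = 0.00338) without that library. SLC7A7, SLC7A8 and SLC7A10 were under the filter on low counts, with at most 74 counts in any library. SLC7A7 had 9 to 17 counts in vehicle and 20 to 56 in TP-472, SLC7A8 had 0 to 4 and 12 to 31, and SLC7A10 had 32 to 74 and 11 to 29. None of these 3 overlapped between the groups, as was the case for 45.4% of the genes that passed the filter.

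The pattern of SLC7A5 over the 8 libraries was compared with that of 11077 genes averaging 5 CPM or more, by the root mean square difference in log2 CPM after centring each gene. The 5 nearest genes were MAP3K14 at 0.051, RARA at 0.072, TCOF1 at 0.089, ZNF276 at 0.098 and DPP9 at 0.100. Its heavy chain SLC3A2 ranked 2821 at 0.456, and the nearest of the other 9 transporters, SLC7A1, ranked 927 at 0.321. These likenesses include the high value in vehicle replicate 3. Over the other 7 libraries (added after seeing the data) MAP3K14 was still among the nearest 5, at 0.054, RARA ranked 28, TCOF1 79, ZNF276 151 and DPP9 72, and the nearest of the transporters was SLC7A6, which ranked 232 at 0.114.

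A list of 39 other amino acid transporters of the same and related families held 16 genes that passed the filter. Of these, 3 were called higher and 2 lower (31.2%, against 26.9% of all genes tested), with a median log2 fold change of -0.02, which was 0.07 without vehicle replicate 3, where 3 and 2 were called (31.2%, against 25.5% of all genes). SLC7A2, a cationic carrier related to SLC7A1, rose from 0.837 ± 0.118 to 4.67 ± 0.801 CPM (log2 fold change 2.47, SE 0.196, adjusted p = 8.38e-05), and SLC1A3, a glutamate and aspartate carrier, from 0.468 ± 0.226 to 3.63 ± 0.356 CPM (2.94, SE 0.309, adjusted p = 2.92e-04). Both stayed called without vehicle replicate 3, at 2.43 and 2.73. These 2 genes passed the filter only through the TP-472 libraries, where they are high, so that a difference was built into their being tested. SLC16A10, a carrier of aromatic amino acids, rose by 0.62 on the log2 scale with all libraries (adjusted p = 0.0201) and by 0.53 without that library, under the fold limit. SLC38A4, a relative of SLC38A2 in the same family, fell from 20.4 ± 6.30 to 9.54 ± 0.638 CPM, with log2 fold changes of -1.10 (adjusted p = 0.00737) and, without vehicle replicate 3, -1.30. SLC38A10 fell from 80.4 ± 58.8 to 34.4 ± 2.996 CPM (-1.22, adjusted p = 0.0404), but vehicle replicate 3 held 168 CPM, and without it the change was -0.57 and was not called. SLC6A17 at 0.77 and SLC38A6 at -0.72, both named after their values were seen, were called only without vehicle replicate 3. Of the 23 genes under the filter, 7 were at 0 counts in all libraries and 15, these included, had under 10 counts in every library.

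Of 11 carriers of amino acids in the mitochondrial membrane, 9 were tested, with 2 called higher and 1 lower (33.3%, against 26.9% of all genes tested) and a median log2 fold change of 0.35, which was 0.26 without vehicle replicate 3, where again 2 and 1 were called (33.3%, against 25.5% of all genes). SLC25A38, which brings glycine into mitochondria for heme synthesis, rose from 21.5 ± 6.001 to 41.2 ± 2.10 CPM (log2 fold change 0.94, SE 0.205, adjusted p = 0.00819). SLC25A13, an aspartate and glutamate carrier, rose by 0.60 on the log2 scale (adjusted p = 0.0116), and by 0.48 without vehicle replicate 3, where it was not called. SLC25A29, a carrier of basic amino acids, fell from 49.5 ± 21.1 to 22.8 ± 0.482 CPM (-1.12, adjusted p = 0.00938). SLC25A38 and SLC25A29 stayed called without that library, at 0.76 and -0.78. SLC25A44, named after its values were seen, was called higher only in that fit, at 0.63 against 0.56 with all libraries.

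All 25 genes of a list of amino acid response genes, most of them known targets of ATF4, were tested, and 2 were called higher and 3 lower (20%, against 26.9% of all genes tested), with a median log2 fold change of 0.17, which was 0.10 without vehicle replicate 3. ATF3, a stress-induced transcription factor, rose from 6.75 ± 0.781 to 21.1 ± 1.53 CPM (log2 fold change 1.64, SE 0.130, adjusted p = 8.38e-05), and STC2, a secreted glycoprotein, rose from 6.58 ± 1.502 to 12.03 ± 0.962 CPM. NUPR1, a stress-induced nuclear protein, fell from 1.501 ± 0.455 to 0.455 ± 0.101 CPM, and passed the filter only through the vehicle libraries, where it is high. PCK2, the mitochondrial phosphoenolpyruvate carboxykinase, fell from 57.3 ± 6.47 to 22.7 ± 3.63 CPM (-1.34, SE 0.147, adjusted p = 3.79e-04), and ALDH1L2, a mitochondrial folate enzyme, fell by 0.90 on the log2 scale. ATF4 itself, named after its values were seen, rose from 221 ± 36.9 to 303 ± 23.02 CPM (0.45, SE 0.137, adjusted p = 0.0313), under the 1.5-fold limit, and by 0.37 (adjusted p = 0.0121) without vehicle replicate 3. The list held called genes in both directions, and the 5 called genes stayed called without vehicle replicate 3, when 6 were called higher and 3 lower (36%, against 25.5% of all genes in that fit), so that the share of the list called was below that of all genes with the library and above it without.

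Of 36 tested genes that carry the amino acid signal to mTORC1, 1 was called higher and 5 lower (16.7%, against 26.9% of all genes tested), with a median log2 fold change of -0.04, which was -0.01 without vehicle replicate 3. SEH1L, a subunit of the GATOR2 complex and of the nuclear pore, rose by 0.70 on the log2 scale (adjusted p = 0.0175). Called lower were, among others, CASTOR2, of the arginine sensor family, at -0.97, and TSC2, which restrains Rheb, at -0.96, with SESN3 and KPTN, the last 2 named after their values were seen. Without vehicle replicate 3 the list had 1 called higher and 2 lower (8.33%, against 25.5% of all genes in that fit). The one higher was then SESN2, named after its values were seen, at 0.59. SESN2 is also in the list of amino acid response genes and is counted there as well. SESN3 stayed called at -1.03, while SEH1L at 0.54, CASTOR2 at -0.53, KPTN at -0.46 and TSC2 at -0.45 were under the fold limit.

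Of 23 enzymes that use amino acids, 22 were tested, with 3 called higher and 3 lower (27.3%, against 26.9% of all genes tested) and a median log2 fold change of 0.09, which was 0.05 without vehicle replicate 3, where 3 and 2 were called (22.7%, against 25.5% of all genes). ODC1, which makes putrescine from ornithine, rose from 146 ± 46.1 to 391 ± 20.9 CPM (log2 fold change 1.42, SE 0.227, adjusted p = 0.00210), and MAT2A, which makes S-adenosylmethionine, rose from 193 ± 20.2 to 439 ± 42.6 CPM (1.18, SE 0.121, adjusted p = 2.64e-04). ARG2, the mitochondrial arginase, fell from 41.4 ± 9.38 to 18.5 ± 1.70 CPM (-1.16, adjusted p = 0.00174). BCKDK, the kinase of the branched-chain ketoacid dehydrogenase, and BCAT2, the mitochondrial branched-chain aminotransferase, fell by 0.76 and by 0.62 on the log2 scale, and without vehicle replicate 3 neither was called, at -0.43 and -0.52. ODC1, MAT2A and ARG2 stayed called without it.

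**Figure D4:**
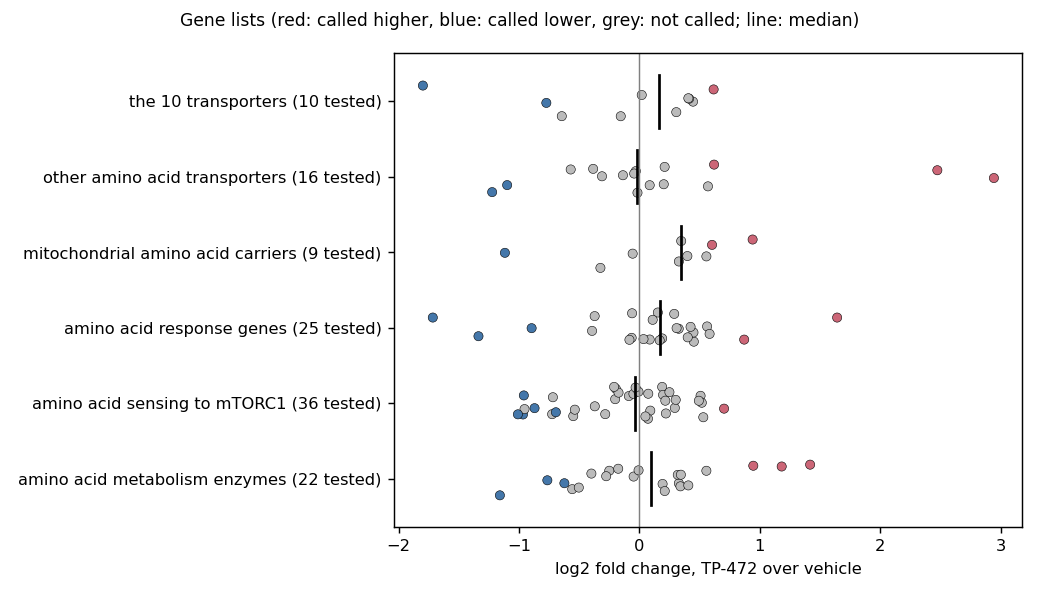
Log2 fold change of TP-472 over vehicle (x axis) for each tested gene of the 10 transporters and of 5 related lists (rows), with genes called higher in red, called lower in blue and others in grey, and the median of each list as a black line. The medians lie between -0.04 and 0.35, and every list holds called genes in both directions.

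Markers of smooth muscle and of other cell types were measured beside these genes. Of 8 smooth muscle markers, 6 passed the filter, CALD1 was the most abundant at 196 CPM, and the summed level was 438 to 520 CPM in vehicle and 370 to 379 CPM in TP-472. Of these 6, 2 were called lower, DES and TAGLN, named after their values were seen (33.3%, against 26.9% of all genes tested). DES was low, at 3.25 CPM in vehicle and 0.63 CPM in TP-472, and passed the filter only through vehicle. Without vehicle replicate 3 ACTA2 was called lower as well. Among the markers that did not pass, 2 defining ones were near 0, MYH11 with 0 to 1 counts in vehicle and 7 to 10 in TP-472, and MYOCD with 0 to 5 and 1 to 8. Of 5 epithelial markers, 3 passed, led by KRT18 at 11.5 CPM, with sums of 17.5 to 23.1 CPM in vehicle and 20.4 to 26.8 CPM in TP-472. KRT18 rose from 7.39 ± 0.871 to 15.6 ± 1.47 CPM (1.08, adjusted p = 7.26e-04), while KRT19, named after its values were seen, fell from 8.88 ± 1.78 to 4.93 ± 1.15 CPM (-0.85, adjusted p = 0.0151), and both stayed called without vehicle replicate 3. None of 5 endothelial markers passed, VWF led at 0.148 CPM, and their sums were under 1 CPM in every library. Of 5 leukocyte markers, only CD68 passed, at 8.98 CPM, and CD3E was at 0 in all libraries, with sums of 7.15 to 8.51 CPM in vehicle and 9.75 to 12.97 CPM in TP-472. The part of these levels in the transporter results was not tested.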

How the data were processed

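RNA from SK-UT-1 cells was measured in 4 vehicle and 4 TP-472 libraries, grouped by the treatment in the labels. The authors made strand-specific libraries from total RNA, mapped reads with STAR and summarised their quality, and estimated transcript abundance with Salmon (version 1.4.0 in the submitters' processing notes), which tximport summed to the genes of GENCODE. Deposited were estimated counts per gene, neither normalized nor filtered.

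Estimated counts were rounded. Genes above 1 CPM in at least 4 of the 8 libraries (14073 genes) were kept, scaled with TMM and tested in edgeR 4.0.16 (R 4.3.3) by its quasi-likelihood F test, with Benjamini-Hochberg adjustment over all genes tested. The paper gives a threshold on adjusted p and fold but names no test for these data. SEs were computed as the log2 fold change divided by the square root of F. Fits that leave out a library kept the same 14073 genes. Ratios, the transporters and genes under the filter were compared with an exact two-sided permutation test over the 70 assignments of libraries to groups. Alternatives were DESeq2 1.42.0, voom with quality weights in limma 3.58.1, other scalings and filters, a replicate block, each library left out, and a correction of each library for GC content (known for 99.3% of genes tested). The GC correction together with vehicle replicate 3 left out, and the abundance order and the likeness to SLC7A5 without that library, were added after seeing the data.

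The 10 genes and the lists were chosen with earlier results of these data known. Named in each other list were the 3 called genes with the largest rise and the 3 with the largest fall. A few list members that enter the counts and medians are left unnamed here. Gene positions, lengths and GC content were read from the GENCODE 29 annotation of GRCh38 by identifier without version, so lengths can differ from the models used for counting. Library totals were 32574672 to 38545464 counts, and counting error and the spread between replicates were not separated. No 2 libraries were copies, since even the closest, vehicle replicates 2 and 4, had a mean chi-square of 10.8 over genes. The calculations were tested on simulated data that held no outlying library and no trend with GC content, unlike the data here.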

Additional observations from a re-analysis of the deposited data

Results flagged for a closer look

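For 30 of 122 groups of 4 libraries examined, the highest or lowest library stood further from the rest than Dixon's 95% critical value allows, which chance gives in about 1 in 20 groups, and 20 of these were vehicle replicate 3. Over all genes tested, that library was extreme for 20.0% (14.2% high and 5.74% low), and the next, TP-472 replicate 4, for 4.09%. Among the 10 transporters vehicle replicate 3 was high for SLC7A5 (268.7 CPM), SLC43A1 (17.4 CPM) and SLC6A9 (27.5 CPM) and low for SLC38A1 (186 CPM) and SLC38A2 (649 CPM), and its ratio of SLC7A5 to SLC7A6 was high at 4.81. TP-472 replicate 4 was high for SLC38A2 (837 CPM), within a narrow group.

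Among the other named genes vehicle replicate 3 was high for SLC38A10 (168 CPM), TSC2 (140.2 CPM), BCKDK (86.6 CPM), BCAT2 (51.4 CPM), SESN2 (63.1 CPM), SLC7A5P1 (5.47 CPM), SLC7A5P2 (4.55 CPM) and SLC7A10 (2.14 CPM), and low for SLC7A11 (41.0 CPM). It was also high for the 5 genes most like SLC7A5, which were picked for that pattern: MAP3K14 (50.9 CPM), RARA (14.8 CPM), TCOF1 (328 CPM), ZNF276 (60.1 CPM) and DPP9 (126 CPM). Vehicle replicate 1 was high for ALDH1L2 (27.9 CPM) and low for TAGLN (27.2 CPM) and CD68 (6.68 CPM). MYH11 had its only vehicle count in replicate 4 (0.0281 CPM). TP-472 replicate 1 was high for SLC25A29 (23.5 CPM) and STC2 (13.5 CPM), TP-472 replicate 3 was high for SLC16A10 (4.41 CPM), and TP-472 replicate 4 was low for SLC25A38 (38.1 CPM) and high for SESN3 (210.4 CPM).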

How the results depend on the processing

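Of the 10 transporters, SLC6A9 kept its call under every alternative run, and SLC7A5 and SLC7A1 changed sign. SLC7A5 (log2 fold change -0.15) was 0.46 with voom quality weights, 0.047 with a replicate block, 0.33 with the GC correction, 0.55 with that correction and vehicle replicate 3 left out (added after seeing the data), and -0.34 to 0.42 with 1 library left out. SLC7A1 (0.02) was -0.00327 with upper-quartile scaling, -0.018 with total-count scaling, 0.27 (adjusted p = 0.0132) with voom quality weights and -0.10 to 0.18 with 1 library left out. The cause was not tested.

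Transporters called higher (1) came to 2 with the GC correction, with or without vehicle replicate 3, and 0 to 1 with 1 library left out. Those called lower (2) came to 3 with DESeq2 or no filter, SLC43A1 being added, 1 with a replicate block and 1 to 2 with 1 library left out. At any fold, the 3 higher became 7 with voom, 1 with the block, 6 with the GC correction without vehicle replicate 3, and 1 to 6 with 1 library left out, and the 2 lower became 1 with the block and 1 to 3. Of the other transporters, those called higher (3) became 5 without a filter, 1 where all 8 libraries had to pass it, 6 with DESeq2 and 5 with voom, and 2 to 3 with 1 library left out, and those lower (2) became 1 with the block and 1 to 2. Mitochondrial carriers called higher (2) became 1 with upper-quartile scaling, total-count scaling or the GC correction. Response genes called higher (2) became 6 with voom, 7 with the GC correction, 6 with it and without vehicle replicate 3, and 2 to 6 with 1 library left out. For mTORC1 the 1 called higher became 2 with the GC correction, and the 5 lower became 1 with voom, the block, or the GC correction without vehicle replicate 3, 2 with the GC correction alone, and 1 to 6 with 1 library left out. Enzymes called lower (3) became 1 with the GC correction and 1 to 3 with 1 library left out. All tested genes called (3789) ranged from 2690 to 4223 with 1 library left out. With 1 library left out, the ratio of SLC38A2 to SLC38A1 differed by -1.27 to -1.04 (log2) and that of SLC7A5 to SLC7A6 by -0.73 to -0.19.

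Libraries of equal replicate number were not alike: the correlations of their deviations from the group means were -0.06, 0.12, -0.17 and -0.18. No vehicle library correlated best with the TP-472 library of its own number. The vehicle deviations include those of replicate 3, and whether libraries of equal number were handled together was not tested. With the replicate block 3055 genes were called, and SLC38A2 was not among them (-0.69, adjusted p = 0.0945).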
